A study of Mus musculus with 57 samples.

Results

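The genes described here are 39 mouse genes of the lysosome, of its proton pump and of autophagy, followed one by one in single prostate cancer cells sorted from bone. They comprise 21 lysosomal hydrolases and membrane or lipid-handling proteins, 6 subunits or accessory proteins of the vacuolar ATPase (V-ATPase), 10 autophagy genes and 2 transcription factors. They were listed by name and not by a cut on their values, though earlier results of these data were known. All 39 were found among the 12887 features of the deposited table of all cells. RM1, a mouse prostate cancer line made to express the fluorescent protein cerulean (eCFP) and firefly luciferase (Luc2), took up PKH26, a dye that lodges in membranes and is diluted at each division, before injection by the intracardiac route into C57BL/6 mice. The hosts kept their own bone marrow. Sorting by dye gave a dormant group with PKH26 retained (28 cells from 6 mice) and a proliferating group without it (29 cells from 6 mice). Cells were taken on days 13 to 26 after injection per the labels of the 8 mice, 4 of which gave both states. Each value is a normalised read count of 1 cell, and the mouse was the replicate.

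Lysosomes are acidic organelles in which hydrolases such as the cathepsins break down protein, lipid and sugar chains. The V-ATPase pumps protons into them, and membrane proteins such as LAMP1 and LAMP2 line them. In autophagy a double membrane encloses cytoplasm, marked by lipid-linked Atg8-family proteins (LC3 and GABARAP), and delivers it to the lysosome. TFEB and TFE3 switch on many genes of both systems by binding an E-box variant. Macrophages, granulocytes and osteoclasts of bone marrow are rich in lysosomal proteins, so these genes are shared between tumour and marrow cells.

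The sorted cells did not all carry the tumour label. In 6 of the 28 dormant cells, from 4 mice, eCFP lay between 0 and 87.6 normalised reads, while the lowest value among the other 51 cells was 327. Lyz2, which encodes lysozyme and is typical of macrophages and granulocytes, stood at 52145 to 188632 normalised reads in the 6 low-label cells, against a median of 4.55 in the 51 labelled cells. A cell was called leukocyte-rich where 5 or more of 18 pan-leukocyte genes were above 0, which took all 6 low-label cells, 7 labelled dormant cells and 2 proliferating cells. In 2 of those 7, both from mouse 1184, Lyz2 stood at 48048 and 95205 beside eCFP of 418 and 736. That left 15 dormant and 27 proliferating labelled cells that were not leukocyte-rich, 42 in all. Their 4 tumour markers in the table (eCFP, Luc2, Krt8 and Krt18) summed to between 4379 and 42670, and 12 macrophage markers to at most 265.7 in the 15 dormant and 215 in the 27 proliferating cells. At most 6 and 7 of the 12 were above 0 in a cell, and Adgre1, Mpeg1 and Aif1 were at 0 in all 15 dormant but not in all 27 proliferating cells. In low-label cells the same 12 summed to at least 93455. The 18 pan-leukocyte genes summed to at most 462.7 in the 15 dormant and 1373 in the 27 proliferating cells. Their sum had a median of 1245 in the 7 leukocyte-rich labelled dormant cells and was at least 15225 in low-label cells. A list of 8 neutrophil markers summed to at most 32.2 in the 15 dormant and 340 in the 27 proliferating cells. In 2 low-label cells, from mice 244 and 369, the granulocyte gene S100a8 reached 180886 and 378089. Recovered depth was 945351 to 5306777 reads and 2397 to 10507 genes per cell. These sets were cut by measured values and are not groups of the study, so differences between them are described and not tested.

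Most of the 39 genes were expressed by labelled cells, and a minority stood far higher in the low-label cells. A gene was called tumour-expressed where it was above 0 in at least 50% of the 42 labelled cells that were not leukocyte-rich. It was called myeloid-high where its mean log2(value + 1) over the 6 low-label cells exceeded that over the 42 by at least 2. By these rules 28 genes were tumour-expressed only, 8 were both (Ctsd, Psap, Lipa, Ctsz, Neu1, Ctsb, Atp6v0c and Hexa), 2 were myeloid-high only (Ctsc and Atp6v0d2) and 1 was neither (Tfeb). Of all 11843 genes above 0 in at least 6 cells, 6.21% met the difference of 2. The detection rule was common in the table as a whole. Of its 12887 features, 7878 genes met it, as counted for the correlations with Ctsl below. Next to the thresholds, Hexa and Atp6v0c lay just inside with a difference of 2.10 each and Gabarap just outside with 1.82. Mcoln1 lay inside the detection rule with 52.4% of cells and Ctsc outside with 45.2%. The difference rule uses log2 means, which cells at 0 pull down, so means and medians can go different ways, as for Gusb below.

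**Figure D1:**
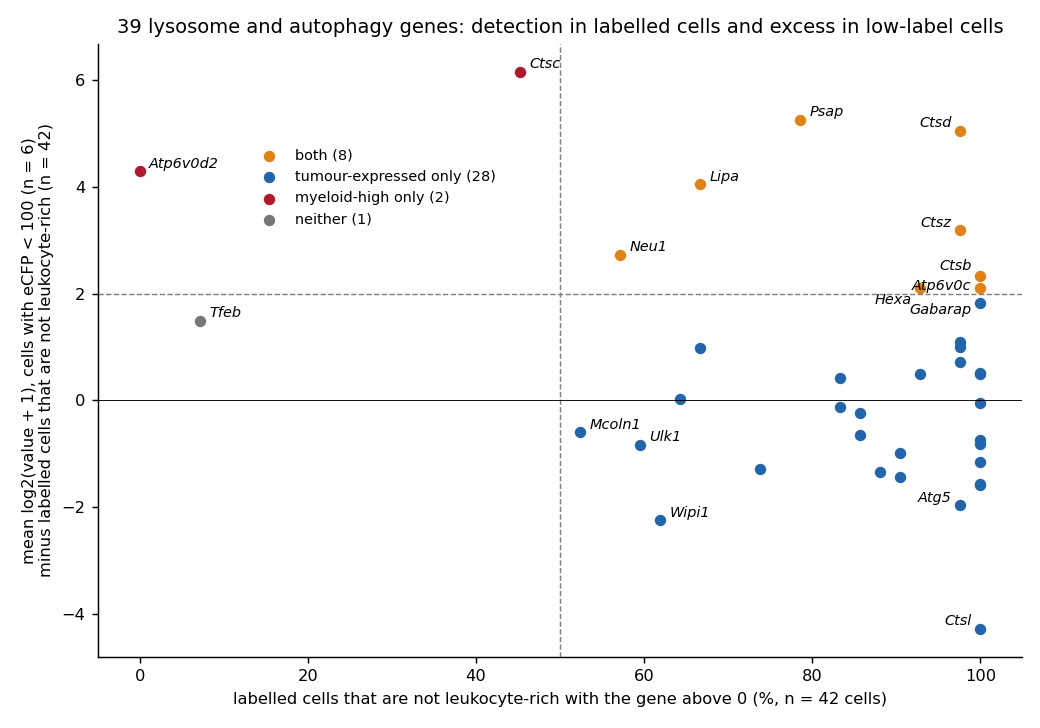
Each point is 1 of 39 genes, placed by the percent of 42 labelled, not leukocyte-rich cells with the gene above 0 (horizontal) and by its mean log2(value + 1) in 6 low-label cells minus that in the 42 cells (vertical); dashed lines mark 50% and 2. Ctsc lies highest at 6.16, Atp6v0d2 sits at 0% detection, and Ctsl is the lowest point at −4.28.

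Among the cathepsins, Ctsd was higher and Ctsl lower in low-label cells. Cathepsin D (Ctsd, ENSMUSG00000007891, chr7:142375911-142388038 on the minus strand of GRCm38) is the main aspartic protease of lysosomes. It ran from 3002 through a median of 31747 to 163257 normalised reads in the 6 low-label cells. In the 15 dormant cells that were labelled and not leukocyte-rich it ran from 66.2 through 2732 to 9264, and in the 27 such proliferating cells from 0 through 1056 to 7437. The low-label cells were thus highest, with an overlap at their lower end, and the labelled sets overlapped almost wholly. Both labelled cells with high Lyz2 held Ctsd at 36415 and 41638, inside the low-label range. The cysteine protease cathepsin L (Ctsl, ENSMUSG00000021477, chr13:64359337-64370890, minus strand) ran the other way, from 18.6 through 522 to 4952 in the low-label cells. It ran from 214 through 23358 to 65872 in the 15 dormant cells and from 373 through 7982 to 71423 in the 27 proliferating cells. Exons merged over all annotated transcripts came to 6489 bases for Ctsl and 2351 for Ctsd, so the sign of a per-kilobase ratio depends on the annotation. Per kilobase of merged exon, the log2 ratio of Ctsl to Ctsd was below 0 in 6 of 6 low-label cells, from −13.51 to −4.28. It was above 0 in 15 of the 15 dormant cells, from 0.21 to 4.75, and in 26 of the 27 proliferating cells, with a median of 2.36. The 7 leukocyte-rich labelled dormant cells spread between these, from −4.23 to 2.64. Low-label minus labelled differences of log2 means were −4.28 for Ctsl and 5.06 for Ctsd, leaving out leukocyte-rich labelled cells. The split of the cells by the ratio thus restates these opposite differences and is no separate result. How many other gene pairs split these cells was not counted.

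**Figure D2:**
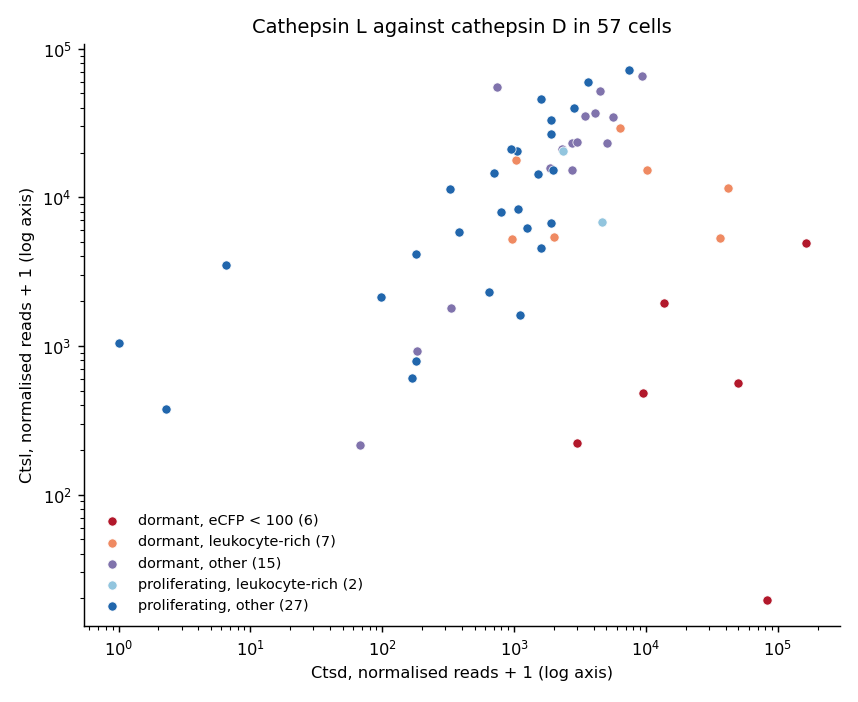
Each point is 1 of 57 cells, with Ctsd (horizontal) and Ctsl (vertical) in normalised reads plus 1 on log axes, coloured by state, label and leukocyte transcripts. The 6 low-label cells lie at the lower right, with Ctsl at most 4952 and Ctsd of at least 3002, and labelled cells run along a diagonal to the upper middle.

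Of the other cathepsins, Ctsc had the largest low-label excess of all 39 genes (6.16), above Ctsd (5.06). Cathepsin B (Ctsb), a cysteine protease, had medians of 29471 in low-label cells, 11296 in the 15 dormant cells and 5193 in the 27 proliferating cells, and its ranges overlapped in all 3 sets. Cathepsin Z (Ctsz) had medians of 4588, 891 and 756 in the same order. The lowest low-label value of Ctsz was 2119. Its highest value in the 42 labelled, not leukocyte-rich cells was 2075 in dormant and 1816 in proliferating cells. Its class rests on these same values, and how many of all genes separate these sets was not counted. Cathepsin C (Ctsc), which activates the serine proteases of granulocytes and other leukocytes, had reads in 6 of 6 low-label cells, with a median of 981. It was above 0 in 19 of the 42 labelled cells (45.2%, exact Clopper-Pearson 95% interval 29.8% to 61.3%, counting error only), at no more than 407 normalised reads. Carboxypeptidase cathepsin A (Ctsa) had medians of 1747, 2281 and 938.

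**Figure D3:**
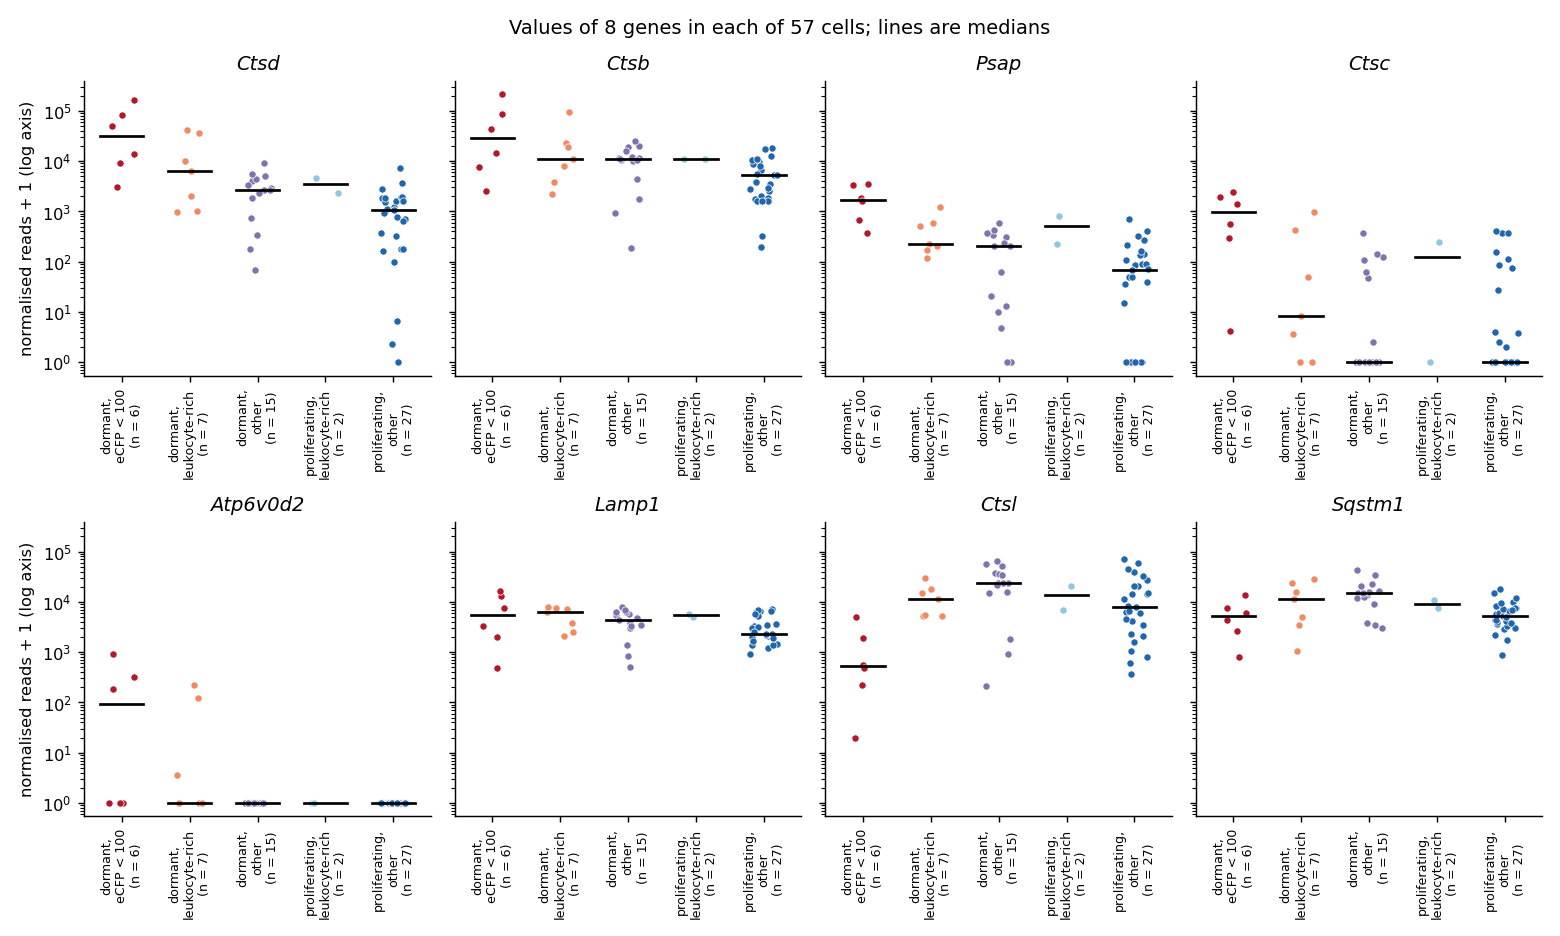
Each panel shows 1 gene, with normalised reads plus 1 per cell on a log axis for dormant cells with eCFP under 100 (6), leukocyte-rich labelled dormant cells (7), other dormant cells (15), leukocyte-rich proliferating cells (2) and other proliferating cells (27); lines are medians. Ctsd, Psap and Ctsc are highest in the first set, Atp6v0d2 is above 0 only in the first 2 sets, and Ctsl is lowest in the first set with a median of 522.

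Among genes for lipid and sugar-chain breakdown, the saposin precursor Psap was high in low-label cells, from 380 through 1725 to 3551. It ran from 0 through 206 to 602 in the 15 dormant cells and from 0 through 67.5 to 718 in the 27 proliferating cells. Lipa, the lysosomal acid lipase, had medians of 860, 53.9 and 13.2 and Neu1, a sialidase, of 331, 66.9 and 4.17, with zeros in each set. Hexa, the alpha subunit of beta-hexosaminidase, had medians of 3914, 1042 and 411. Asah1, acid ceramidase, and Tpp1, a tripeptidyl peptidase, had no higher means in low-label cells (differences of −0.24 and −1.35), with medians of 1207, 1856 and 835 for Asah1 and of 111, 963 and 441 for Tpp1. The progranulin gene Grn had medians of 1706, 5845 and 1575. The protease legumain (Lgmn) and beta-glucuronidase (Gusb) differed by 0.42 and −0.66 on the log2 scale and were above 0 in 83.3% and 85.7% of the 42 labelled cells. Their medians in low-label and these 42 cells were 243 and 137 for Lgmn and 556 and 142 for Gusb. Gusb was above 0 in 4 of 6 low-label cells, so its mean and median went different ways. The lysosomal channel Mcoln1 differed by −0.60. The sterol carriers Npc1 and Npc2 differed by −0.12 and −0.04 between low-label and labelled cells on the log2 scale. Medians in low-label and the 42 labelled cells were 25.2 and 51.3 for Npc1 and 2570 and 1195 for Npc2. The membrane proteins Lamp1, Lamp2 and Cd63 were above 0 in all 57 cells. Their low-label minus labelled differences were 0.49 for Lamp1, −1.59 for Lamp2 and −1.57 for Cd63. One granulocyte-marker cell of mouse 369 (S100a8 of 378089) held the lowest Cd63 of all cells, 21.9, and Cd63 ran from 806 to 16462 in the other 5 low-label cells.

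The V-ATPase genes did not all go the same way. The d subunit of the membrane sector has 2 gene copies, the ubiquitous Atp6v0d1 and Atp6v0d2, known from osteoclasts and macrophages. Atp6v0d2 (ENSMUSG00000028238, chr4:19876841-19922605, minus strand) was above 0 in 3 of 6 low-label cells, at 188, 322 and 940. Among labelled dormant cells 3 of 22 had reads (2.68, 123 and 225), all of them leukocyte-rich. Of the 29 proliferating cells 0 had reads, and 3 counts of that total set the upper limit of the share at 10.3% (exact Clopper-Pearson limit 11.9%). Both limits concern cells with reads, not cells expressing the gene, cover counting error only and leave out that the cells share 6 mice. Atp6v0d1 was above 0 in 5 of 6, 22 of 22 and 28 of 29 cells of these sets. Atp6v0c, the proton-carrying ring subunit, ran from 6276 through 8703 to 19283 in low-label cells. It ran from 617 to 4635 in the 15 dormant cells and from 1174 to 3882 in the 27 proliferating cells. For the cytosolic subunits Atp6v1a and Atp6v1b2 the low-label minus labelled differences were 0.99 and −1.15, and for the accessory Atp6ap1 −0.99. These are differences of log2 means, which cells at or near 0 pull down. Medians in low-label and the 42 labelled cells were 1808 and 472 for Atp6v1a and 1632 and 827 for Atp6v1b2. For Atp6ap1 they were 478 and 577. Atp6v1b2 was above 0 in 5 of 6 low-label cells, and 1 of these held only 2.66. Of the osteoclast markers, 2 were in the table, Ctsk and Mmp9, and they summed to 0 to 3067 in low-label cells and 0 to 845 in the 27 proliferating cells.

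Of the 10 autophagy genes 7 had lower means in low-label than in labelled cells, where 80.4% of all genes did. The cargo receptor Sqstm1 (p62) ran from 810 through 5190 to 13612 in low-label cells. It ran from 2991 through 14685 to 42818 in the 15 dormant cells and from 871 through 5174 to 18306 in the 27 proliferating cells. Of the Atg8 family, Map1lc3b, Gabarap and Gabarapl2 were above 0 in all 42 labelled, not leukocyte-rich cells, and Gabarapl1 in 64.3% of them. Gabarap had the largest low-label excess of the 10 genes (1.82), with medians of 3611, 1529 and 684. The values of the other 3 were 0.51 for Map1lc3b, 0.03 for Gabarapl1 and −0.82 for Gabarapl2. Medians in low-label and the 42 labelled cells were 1917 and 1492 for Map1lc3b and 6.76 and 14.4 for Gabarapl1. For Gabarapl2 they were 616 and 504, against the sign of its difference of means. The 5 genes that act in initiating autophagosomes or in lipid linkage all had lower means in low-label cells. Their differences were −0.84 for the kinase Ulk1, −1.44 for Becn1, −1.96 for Atg5, −1.29 for the E1-like enzyme Atg7 and −2.25 for Wipi1, which binds phosphoinositides. Wipi1 was above 0 in 2 of 6 low-label cells, at no more than 8.07. Genes detected had a median of 5225 in low-label cells and 7655 in the 42 labelled cells, and the part of this in these lower values was not tested. Reads of close relatives in the Atg8 family may be split between them in counting, so these 4 values carry that uncertainty.

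The regulators themselves were scarce. Tfeb was above 0 in 6 of 57 cells (10.5%, exact Clopper-Pearson 95% interval 3.96% to 21.5%), 3 of 28 dormant and 3 of 29 proliferating, at no more than 53.4. Its paralogue Tfe3 was above 0 in 5 of 6 low-label cells, 14 of 22 labelled dormant cells and 20 of 29 proliferating cells, with medians of 101, 42.4 and 67.3. Per kilobase of merged exon in the 42 labelled cells, Cd63, Ctsl and Sqstm1 had the highest medians of the 39 genes (2445, 2289 and 2080). Tfe3 ranked 31 with 5.85 and Tfeb had a median of 0. In low-label cells Ctsd ranked first with 13504 per kilobase and Ctsl ranked 28 with 80.4. Merged exons take in every annotated transcript, so these ranks depend on the annotation.

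Promoter sequences from the RefSeq set on GRCm38.p6 were searched for TCACGTGA, the palindromic element bound by TFEB and TFE3, because these 2 factors are among the 39 genes. Windows of 250 bases before to 50 after the RefSeq gene start were present for 33 of the 39 genes. The letters TCACGTGA occurred in the windows of 5 (15.2%), against 1.12% of the 27025 genes with a window. The inner hexamer CACGTG, which every TCACGTGA contains, occurred in those of 10 (30.3%), against 8.09% of those genes. Both motifs read the same on either strand. The stretches follow, each 30 bases 5′ to 3′ on the gene's strand, with the matched letters in capitals.
Ctsd, chr7:142387908-142387937, minus strand: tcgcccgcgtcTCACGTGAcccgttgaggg
Ctsa, chr2:164833758-164833787, plus strand: tgTCACGTGAtgcagatgcTCACGTGAcca
Mcoln1, chr8:3500462-3500491, plus strand: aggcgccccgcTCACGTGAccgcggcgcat
Atp6v0d1, chr8:105566050-105566079, minus strand: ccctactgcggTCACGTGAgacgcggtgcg
Atp6v1a, chr16:44139373-44139402, minus strand: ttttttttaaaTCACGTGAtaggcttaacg
Lamp1, chr8:13159096-13159125, plus strand: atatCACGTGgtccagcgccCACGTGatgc
Ctsl, chr13:64370739-64370768, minus strand: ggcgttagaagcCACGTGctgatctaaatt
Counted from the RefSeq start of the window, the first motif base lay at −99 for Ctsd, −46 for Mcoln1, −4 for Atp6v0d1 and −132 for Atp6v1a. Ctsa held 2 copies, at −13 and 4, in the window shown and 0 in its other window. These starts can differ from those of GENCODE, and the stretches of Ctsd, Ctsa, Mcoln1, Atp6v1a and Ctsl lie inside the GENCODE genes. Lamp1 and Ctsl had only the hexamer, 4 times in the Lamp1 window (2 of them shown) and once in the Ctsl window. Of the 5 genes with TCACGTGA only Ctsd was myeloid-high, and the other 4 were tumour-expressed only. A match of letters is a description and shows no binding.

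The first comparison set the dormant against the proliferating group with all 8 mice in it. Differences are dormant minus proliferating mouse means of log2(value + 1), in which cells at 0 count, so they are not folds within expressing cells. All 39 genes were tested, and none of them passed limma with Benjamini-Hochberg adjustment over all genes (0 of 11843 genes called, 0%). At an unadjusted p under 0.05, 6 of the 39 were higher in dormant cells (3.28% of all genes) and 0 lower (6.22% of all genes). The 39 differences were positive for 31 genes, and had a median of 0.88 (−0.35 over all genes tested). The 6 genes were Ctsd, Psap, Ctsz, Atp6v0d2, Ctsc and Atp6v0c, and each was myeloid-high by the values of low-label cells. As those cells are part of the dormant group, the classes and this comparison share values. Over all mice 14 of 17 pan-leukocyte and 11 of 12 macrophage markers tested were also higher at an unadjusted p under 0.05. Of the tumour markers 2 of 4, and of the proliferation markers 3 of 4, were lower. Their part in the lysosomal differences was not tested. Leaving out 1 mouse moved the count of 6 to 3 without mouse 244 (2.63% of all genes), to 11 without mouse 369 (2.69%) and to 10 without mouse 452 (3.81%).

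Ctsd had dormant mouse means of 14.14, 11.67, 13.20, 16.46, 9.96 and 10.61 in mice 1184, 1185, 244, 360, 369 and 452. Its proliferating means were 11.12, 5.33, 8.35, 9.10, 8.05 and 11.37 in mice 1185, 268, 288, 360, 369 and 452. Mouse 360, where both dormant cells were low-label, was highest, and the states overlapped. The difference was 3.79 ± 1.04 (SE, 6 and 6 mice), with a limma p of 0.0017 and an adjusted p of 0.437. For Psap the mean was 8.01 ± 2.70 (SD, n = 6 mice) in dormant and 4.31 ± 2.66 (n = 6 mice) in proliferating cells, a difference of 3.70 with a limma adjusted p of 0.443. For Ctsz the means were 10.97 ± 1.49 and 8.77 ± 1.98 (limma adjusted p = 0.448). For Ctsc they were 6.23 ± 3.73 and 2.44 ± 2.03 (limma adjusted p = 0.456). For Atp6v0c they were 12.10 ± 0.87 and 11.10 ± 0.55 (limma adjusted p = 0.483). Atp6v0d2 had means of 8.34 and 8.72 in the dormant cells of mice 244 and 360, and of 0 to 1.39 in the other 4, against 0 in each of the 6 proliferating means (limma adjusted p = 0.450).

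The 6 genes with negative differences and the smallest p were Ctsl, Atg5, Atp6v1b2, Ulk1, Tfe3 and Wipi1. Ctsl had means of 11.84 ± 2.33 (SD, n = 6 mice) in dormant and 13.10 ± 1.20 in proliferating cells, a difference of −1.26 ± 0.87 (SE) with a limma adjusted p of 0.687. The other 5 lay between −0.72 and −0.33 with limma adjusted p from 0.83 to 0.939. Differences were near 0 for Cd63 (0.04 ± 0.49, SE), Sqstm1 (−0.09 ± 0.54), Lamp2 (−0.10 ± 0.64) and Gabarapl2 (0.10 ± 0.68). They were 0.19 ± 0.49 for Map1lc3b, 0.51 ± 0.51 for Gabarap and 1.03 ± 1.26 for Gabarapl1. The values were 0.72 ± 0.49 for Lamp1, 1.51 ± 0.74 for Ctsb, 0.89 ± 0.87 for Atp6v0d1 and 0.30 ± 0.83 for Tfeb. By role, 19 of 21 hydrolase and membrane genes were positive (median 1.39), 5 of 6 V-ATPase genes (median 0.95) and 6 of 10 autophagy genes (median 0.15). A count test on recovered reads gave another count. DESeq2 called 8 of the 39 genes higher in dormant cells (Ctsb, Ctsc, Ctsd, Ctsz, Lgmn, Lipa, Psap and Atp6v0d2), against 2.48% of all genes called higher, and edgeR called 0 (17 at an unadjusted p under 0.05, as 5.62% of all genes). With median of ratios scaling, 10 of the 39 had an unadjusted p under 0.05, each with the higher mean in dormant cells (3.99% of all genes), where all genes split into 472 higher and 471 lower rather than 389 and 737.

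**Figure D4:**
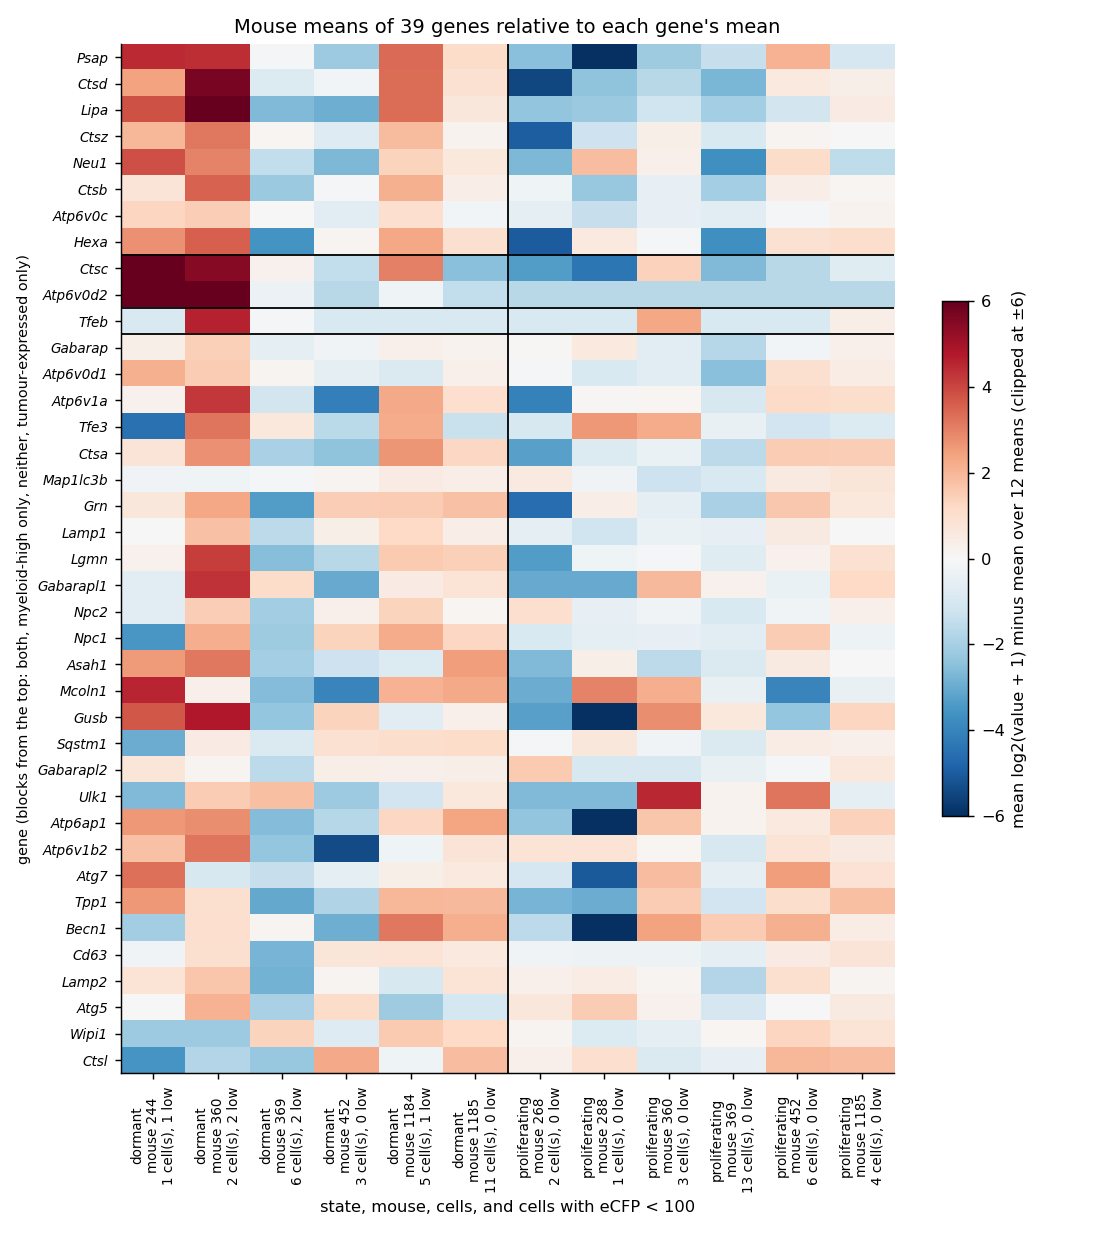
Rows are the 39 genes in blocks by class and columns the 6 dormant and 6 proliferating mouse means, coloured by mean log2(value + 1) minus the gene's mean over the 12 columns, clipped at ±6. The genes of the upper blocks are reddest in the dormant columns of mice 244, 360 and 1184, each of which holds low-label cells, as mouse 369 does.

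The second comparison kept cells with eCFP of at least 100, which leaves 4 dormant and 6 proliferating mouse means. Of 37 genes tested none passed limma's adjusted threshold (0 of 11595 genes, 0%). At an unadjusted p under 0.05 only Ctsd was higher (1.45% of all genes) and 0 were lower (0.509% of all genes). The difference of Ctsd was 2.24 ± 1.03 (SE, limma p = 0.0435, adjusted p near 1). Differences were positive for 31 of the 37 and had a median of 0.53 (0.09 over all genes). DESeq2 called 0 of the 37 (0.112% of all genes called higher), and edgeR called 0. With median of ratios scaling 1 was higher (1.82% of all genes), and all genes split into 211 higher and 39 lower rather than 168 and 59. With a random mouse block, or without mouse 1184, 268 or 288, 0 were higher, and without mouse 369 7 were (1.28% of all genes). The median was 0.03 without mouse 1184. Among labelled cells 9 of 11 macrophage markers tested were still higher at an unadjusted p under 0.05. With the 9 leukocyte-rich labelled cells left out as well, 25 of 37 genes were positive and their median was 0.20 (0.09 over all genes), and 0 had an unadjusted p under 0.05. Ctsd then differed by 1.37, Ctsz by 0.76, Psap by 0.97, Ctsb by 0.04 and Lipa by −0.44. Ctsl, at −1.26 over all cells, was at 0.35 in labelled cells and 0.15 without leukocyte-rich cells.

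**Figure D5:**
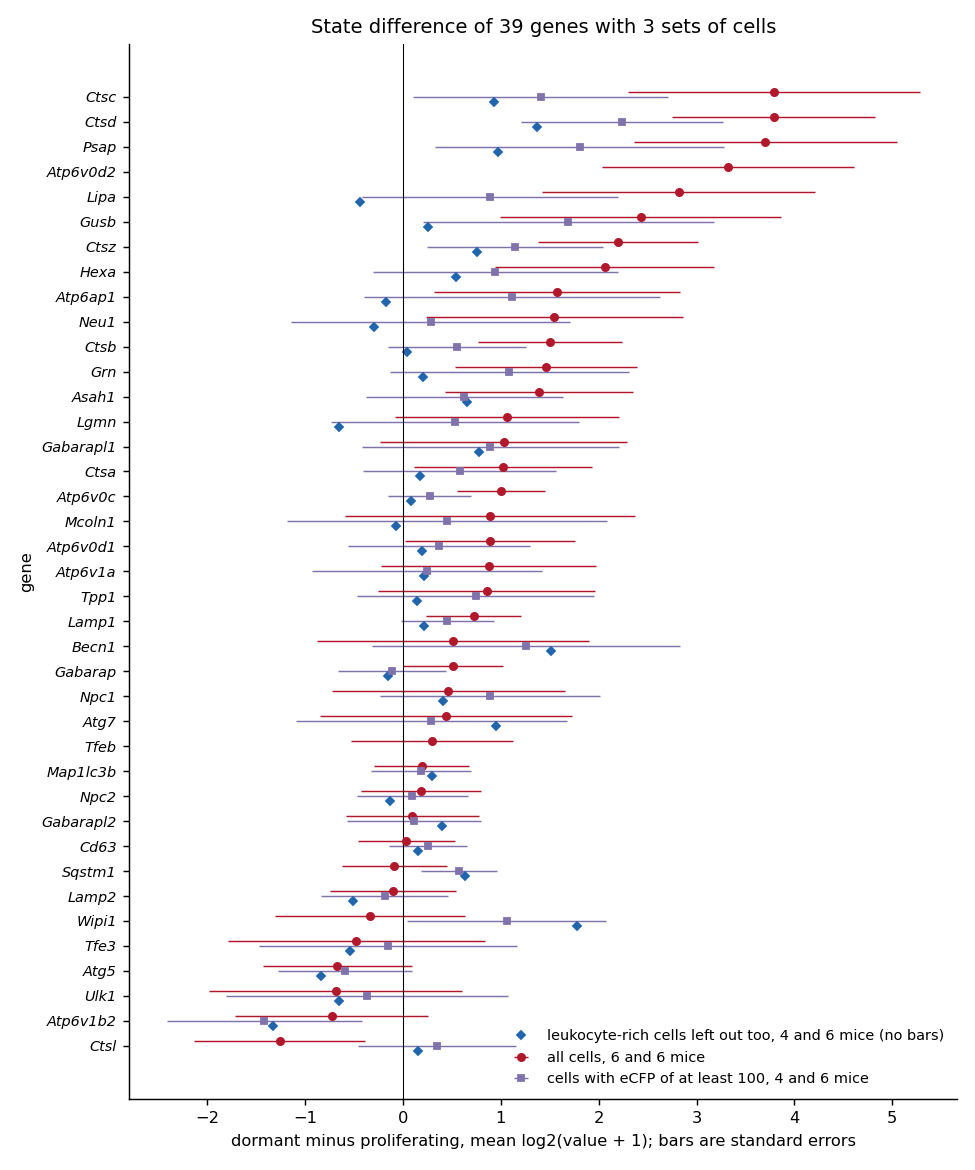
For each of 39 genes, the dormant minus proliferating difference of mouse means on the log2(value + 1) scale with all cells (circles, bars are standard errors), with cells of eCFP at least 100 (squares, bars likewise) and with leukocyte-rich cells left out too (diamonds). From the first set to the last, Ctsd goes from 3.79 through 2.24 to 1.37 and Ctsc from 3.79 to 0.93.

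The third comparison set dormant against proliferating cells within the 4 mice that gave both. Of 38 genes tested none passed limma's adjusted threshold (0 of 11565 genes, 0%), and DESeq2 (1.21% of all genes called higher) and edgeR called none. At an unadjusted p under 0.05 only Ctsd was higher (1.03% of all genes; 2.27 ± 0.98, SE, limma adjusted p = 0.536) and 0 were lower (8.21% of all genes). Differences were positive for 26 of the 38 and had a median of 0.28 (−0.72 over all genes). The mice went different ways. In mouse 360, whose dormant cells were both low-label, 32 of 39 genes were higher in dormant cells (24.3% of all genes). The median difference there was 2.14 against −1.59 over all genes. In mouse 452, whose 3 dormant cells were labelled and not leukocyte-rich, 8 of 39 were higher (32.6% of all genes). The median there was −0.76 against −0.44. In mouse 369 the count was 17 of 39, with a median of −0.34 against −0.82, and 26.8% of all genes were higher. In mouse 1185 it was 21 of 39, with a median of 0.17 against 0.18, and 55.0% of all genes were higher. Without mouse 360 the median over the genes was −0.27 and 10 of 37 were positive. Without leukocyte-rich cells mouse 360 dropped out, as both its dormant cells were leukocyte-rich. Mice 369, 452 and 1185 remained, with 2, 3 and 8 dormant cells. The median was then −0.50 (−0.24 over all genes), with 1 of 21 hydrolase and membrane genes and 6 of 10 autophagy genes positive. In these mice 9, 8 and 28 of 39 genes were higher in dormant cells (35.2%, 30.2% and 60.7% of all genes). Ctsd then differed by −0.47. A fit without the mouse block gave 0 genes at an unadjusted p under 0.05. With median of ratios scaling 4 of the 38 were higher (1.53% of all genes), and all genes split into 177 higher and 621 lower rather than 119 and 950. Within these mice 10 of 12 macrophage markers were higher and 4 of 4 proliferation markers lower at an unadjusted p under 0.05, and their part was not tested.

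In 4 of the 4 mice with both states Sqstm1 had its higher mean in dormant cells (1.4% of all genes did), with dormant means of 13.15, 11.80, 13.58 and 13.76 and proliferating means of 12.46, 11.77, 13.08 and 12.97 in mice 360, 369, 452 and 1185. In mouse 360 both dormant cells were low-label. Among labelled cells the dormant and proliferating medians were 3489 and 3614 normalised reads in mouse 369. They were 11769 and 7869 in mouse 452, and 15890 and 7144 in mouse 1185. The difference within the 4 mice was 0.50 ± 0.35 (SE, limma p = 0.175) and did not pass. Without leukocyte-rich cells it was 0.48 within mice 369, 452 and 1185, as mouse 360 dropped out. In labelled cells of all mice it was 0.57 ± 0.39. The value over all mice, −0.09, includes mouse 244, whose single low-label cell gave a mean of 9.66, and was 0.50 without that mouse. Atg7 had its lower mean in dormant cells in 4 of these 4 mice (17% of all genes did), with a difference within mice of −1.75 ± 1.11 (SE, limma p = 0.139). Over all mice its difference was 0.44 and in labelled cells 0.29.

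Cell by cell, many of the lysosomal genes moved together over labelled cells with both states and all their mice pooled. Ctsl was taken as the reference after its values were seen, because it was the most abundant protease per kilobase in these cells. Over the 42 labelled, not leukocyte-rich cells, Spearman's rho with Ctsl was 0.91 for Cd63, 0.91 for Grn, 0.89 for Ctsb, 0.86 for Ctsa, 0.84 for Asah1, 0.84 for Lamp1 and 0.83 for Ctsd. Of the 35 other genes above 0 in at least 50% of these cells, 7 had a rho of at least 0.8 (20%) and 23 of at least 0.5 (65.7%). Among all 7878 such genes in the table the shares were 0.228% and 6.75%, and the median rho was 0.10. The hydrolase and membrane genes had a median rho of 0.70 (20 genes), the V-ATPase genes of 0.66 (5 genes) and the autophagy genes of 0.35 (10 genes). Sqstm1 (0.69), Map1lc3b (0.63) and Gabarap (0.53) were the autophagy genes at or above 0.5, and Ulk1 (0.04), Gabarapl1 (0.07) and Atg5 (0.13) were lowest. Tfe3 and Tfeb had values of 0.13 and 0.03.

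Inside single mice the median rho of hydrolase and membrane genes was 0.70 in mouse 369 and 0.63 in mouse 1185, that of V-ATPase genes 0.63 and 0.24, and that of autophagy genes 0.46 and −0.01. The all-gene shares above hold for the 42 pooled cells only, and none are given inside a mouse. Tfe3 had 0.76 and −0.34. Over the 13 proliferating cells of mouse 369, rho with Ctsl was 0.96 for Cd63, 0.95 for Ctsb, 0.93 for Lamp1, 0.92 for Ctsa and 0.63 for Ctsd. Over the 8 dormant, not leukocyte-rich cells of mouse 1185 it was 0.86 for Ctsd, 0.76 for Ctsb and 0.71 for Ctsa, but 0.43 for Lamp1 and 0.21 for Cd63. Cells share their mouse and their normalisation, so these values are descriptions without a test. The same 21 hydrolase and membrane genes had a median rho of 0.27 with the number of genes detected and 0.42 with eCFP over the 42 cells. In mouse 369 these were 0.47 and 0.60, and in mouse 1185 0.40 and 0.35. With Lyz2 the 8 genes that were both tumour-expressed and myeloid-high had rho between −0.32 and −0.01 in these 42 cells, between −0.10 and 0.55 in mouse 369 (7 of 8 positive) and between −0.66 and −0.06 in mouse 1185. With the number of pan-leukocyte genes above 0 the 8 had rho of 0.03 to 0.83 in mouse 369 and 0.02 to 0.53 in mouse 1185. In the 42 cells Lyz2 had a median of 3.02 and reached at most 57.2 normalised reads. At most 4 pan-leukocyte genes were above 0 in any of them. The ranks behind these rho values thus rest on values near the floor. Of the 5 genes with TCACGTGA in the promoter window, rho with Ctsl was 0.86 for Ctsa, 0.83 for Ctsd, 0.70 for Atp6v1a, 0.33 for Atp6v0d1 and 0.30 for Mcoln1.

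Of further genes of the same pathways, 89 were tested over all mice. At an unadjusted p under 0.05, 7 had the higher mean in dormant cells (3.28% of all genes) and 1 the lower (6.22% of all genes). None of the 89 passed limma's adjusted threshold. The hydrolase and membrane list held 6 of the 7 higher genes among 37 tested, with a median of 0.82 (−0.35 over all genes). Ctss, the cathepsin of antigen-presenting cells, had means of 7.36 ± 6.01 (SD, n = 6 mice) in dormant and 0.75 ± 0.66 in proliferating cells (limma adjusted p = 0.437). Its difference of 6.62 was −0.47 without leukocyte-rich cells. Laptm5, a lysosomal protein of blood cells, differed by 4.49 and by −0.79 without those cells, and its relative Laptm4b by −4.16 and −0.83. Of 12 further V-ATPase genes 0 had an unadjusted p under 0.05. Atp6v0a1 differed by 1.89, Atp6v0e by 0.62 and Tcirg1, the a3 subunit of osteoclasts, by 1.68 (−0.58 without leukocyte-rich cells). Of 26 further autophagy genes 1 was higher, where 3.28% of all genes were. This was Atg2a, a lipid-transfer protein, at 2.64 ± 1.10 (SE) and 2.30 without leukocyte-rich cells. Tax1bp1, a cargo receptor, differed by −1.62 and Wipi2 by −2.39 (−0.42 without those cells). Of 14 nutrient-signalling genes 0 had an unadjusted p under 0.05, and Rptor (−2.04), Mtor (−1.86) and Rragc (1.10) had the smallest p.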

How the data were processed

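RNA of single RM1 cells was amplified full-length (SMARTer) and made into Nextera XT libraries with ERCC spike-ins, per the labels' protocols. STAR, RSEM, GRCm38 and mm10 are named without versions in the submitters' processing notes. Per the series text, the authors normalised with BASiCS, which uses spike-ins. The deposited values are a signal of normalised reads per gene and cell, never negative, in a table of 57 cells and one of the 48 cells of the 4 mice that gave both states. In every cell 100% of values above 0 were whole multiples of 1 step (tolerance 0.01), so reads were recovered for the count tests. All intervals cover counting error only. No 2 cells correlated above 0.891.

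Per the labels each sample is 1 cell with a mouse and a state. The unit was the mean of log2(value + 1) per mouse and state; mouse 244 (dormant) and mouse 288 (proliferating) rest on 1 cell. limma 3.58.1 was run on genes above 0 in 6 cells or more (trend, robust), unblocked over all mice and in labelled cells, and with the mouse as a block within mice, where pairing comes from the labels. Correlations of paired deviations were −0.01, 0.34, 0.16 and −0.01 in mice 360, 369, 452 and 1185. edgeR 4.0.16 and DESeq2 1.42.0 on reads summed per mouse and state were alternatives, with other pseudocounts, filters, scalings, cells and mice. Libraries were made in batches of 1 state each, per the labels, so state cannot be told apart from batch.

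Genes named with full values were the 6 positive and 6 negative genes with the smallest p over all mice and a fixed set of cathepsins, membrane proteins, d subunits, Atg8 genes, Sqstm1 and both factors. The members, lists and thresholds were chosen with earlier results of these data known. Positions of genes are those of GENCODE on GRCm38, and promoter windows are from RefSeq on GRCm38.p6. Of the 39 genes, 7 overlap another gene of the table, and no step of the labels' protocol marks strand. Scripts were tested on simulated data. The software was Python 3.11.15 with scipy 1.17.1, matplotlib 3.10.9 and pandas 2.3.3, and R 4.3.3.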

Additional observations from a re-analysis of the deposited data

Results flagged for a closer look

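In 5 of 46 sets of 6 mouse means, 1 mouse stood apart from the other 5 by more than Dixon's 95% critical value, which chance does in about 1 in 20 sets. The mean log2(value + 1) of Ctsz in proliferating cells was 4.94 in mouse 268 and 8.63 to 10.21 in the others. Lamp2 in proliferating cells was 9.10 in mouse 369 and 11.04 to 11.82 in the others. In dormant cells of mouse 369, Cd63 was 10.06 (12.65 to 13.81 in the others) and Gabarapl2 was 7.29 (9.02 to 9.62 in the others). Tfeb in dormant cells was 5.54 in mouse 360 and 0 to 0.77 in the others.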

How the results depend on the processing

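No gene of the 39 passed an adjusted p of 0.05 over all mice, within mice or in labelled cells under any alternative, except over all mice with DESeq2, which called 8. Leaving out each mouse in turn gave 0 calls throughout, with medians over the genes of 0.48 to 1.37 over all mice, 0.03 to 1.07 in labelled cells and −0.27 to 0.64 within mice. The median within mice was −0.50 without leukocyte-rich cells, −0.23 without cells with eCFP under 100 and −0.27 without mouse 360. Mouse 360 also dropped out of the fits without leukocyte-rich or low-label cells, as both its dormant cells were of both kinds. A random mouse block (replicate block) over all mice gave 0 adjusted calls, a median of 0.80 and 6 genes with an unadjusted p under 0.05 (3.29% of all genes), and in labelled cells a median of 0.27. At an unadjusted p under 0.05 over all mice, edgeR found 17 genes higher (5.62% of all genes), DESeq2 18 (7.19%), log2 of the mean value 9 (3.48%), median of ratios scaling 10 (3.99%) and mouse means of at least 2 cells 2 (1.93%), against 6 (3.28%). Median of ratios scaling moved the median of all genes over all mice from −0.35 to −0.13. A difference of at least 3 left 6 myeloid-high genes rather than 10.

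Of the 23 genes named with full values, 12 kept their sign over all mice under every alternative run and 11 did not. Without cells with eCFP under 100, values were 0.35 for Ctsl, 1.06 for Wipi1, −0.11 for Gabarap and 0.57 for Sqstm1, and without leukocyte-rich cells 0.15, 1.78, −0.15 and 0.64. With edgeR they were 0.16 for Atg5, 1.09 for Atp6v1b2, 0.23 for Ulk1, 1.12 for Tfe3, 0.59 for Lamp2, −0.071 for Gabarapl2 and 0.60 for Sqstm1. With DESeq2 they were 0.23, 1.27, 0.30, 1.06, 0.68, −0.013 and 0.60. With log2 of the mean value Atp6v1b2 was 0.32 and Lamp2 0.054, and with median of ratios scaling Lamp2 was 0.40 and Sqstm1 0.42. With mouse means of at least 2 cells Tfe3 was 0.85, Gabarapl2 −0.22 and Sqstm1 0.63. Leaving out each mouse in turn gave −1.49 to 0.37 for Atp6v1b2, −1.28 to 0.26 for Ulk1, −0.97 to 0.37 for Tfe3, −0.68 to 0.068 for Wipi1, −0.42 to 0.091 for Lamp2, −0.21 to 0.49 for Cd63, −0.11 to 0.42 for Gabarapl2 and −0.30 to 0.50 for Sqstm1. In every case the cause was not tested. Leaving out labelled cells with Lyz2 above 10000, an alternative chosen after seeing the data, gave a median of 0.45 in labelled cells. Depth limits the genes seen in few cells, such as Tfeb and Atp6v0d2, whose zeros do not show absence.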
